A study of Mus musculus with 28 samples.

Results

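The response of wild-type (WT) mouse embryonic fibroblasts (MEFs) to hydrogen peroxide was read from 8 arrays, 4 of cells exposed to H2O2 and 4 of untreated cells, out of the 28 arrays of the series. These 8 arrays were taken by their labels, and all 45037 probe sets other than the array's own controls were compared. MEFs are primary connective tissue cells grown from the body of embryos, here 13.5 days old, and they were used at passage 2. The treated cells were washed and kept for 4 h in medium with 400 μM H2O2, and the labels do not say whether the untreated cells were washed or given fresh medium. A change of medium and H2O2 itself therefore cannot be told apart. The labels name the strain C57Bl/6 and the genotype wild type in both groups, whereas the study's methods name another strain background for the arrays, and the methods describe each array as an independent RNA preparation. Cells without p66 (p66-/-), untreated or given the same H2O2, supplied 8 further arrays for comparison. The p53-/- cells and those given doxorubicin were used in the estimate of the spread only.

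Hydrogen peroxide crosses membranes, oxidizes reactive cysteines in proteins and, together with iron, damages DNA. Cells answer with several programmes that are well known apart from p53, the arrest in G2-M, Nrf2 and sterol synthesis. Phosphorylation of the translation factor eIF2α slows protein synthesis and favours the translation of ATF4, which is the integrated stress response. FoxO factors drive genes of growth arrest and autophagy when growth factor signalling is low. ERK kinase signalling, the BMP pathway and the actin-sensing factors YAP and SRF keep growth genes of cultured fibroblasts active. The genes of these programmes are described below.

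Each value is a log2 signal after RMA, a method that corrects the background, equalizes the distributions of the arrays and condenses the probes of a probe set. One unit is thus a 2-fold difference. The medians of the 8 WT arrays lay between 4.37 and 4.424, and the array's nonspecific control probe sets had a median of 2.56. The cells carried the transcripts of fibroblasts, with vimentin (Vim) at 13.04, Col3a1 at 12.39, S100a4 at 12.36 and Thy1 at 10.69 in untreated cells, although Col1a2 and Pdgfra read only 5.74 and 5.77. Of 43 measured markers of 6 other cell types, limma called none at an adjusted p under 0.05, with 2 at an unadjusted p under 0.05 and 0 in the methods' t-test after adjustment. The macrophage lysozyme gene Lyz2 stood out among them at 9.55 in untreated and 9.52 in treated cells, with single arrays between 6.78 and 11.01. The 8 markers of macrophages and other leukocytes had a median of 6.01 in untreated cells, above the 5.41 of all genes. The other lists of markers had medians from 3.42 to 4.55. Spiked control RNAs divided the arrays into replicates 1 and 2 and replicates 3 and 4, each set with both treatments. The difference between 3′ and 5′ probe sets, a sign of RNA integrity, was higher in the treated array of every pair on the log2 scale. For actin it went from 0.2317, 0.25, 0.2333 and 0.1581 in untreated replicates 1 to 4 to 0.2749, 0.41, 0.2785 and 0.2213, and for Gapdh from -0.1324, -0.0316, -0.1467 and -0.1569 to -0.0358, 0.006, -0.1181 and -0.1211. Its part in the results was not tested. In a bulk sample, fewer cells of a type and less RNA per cell cannot be told apart.

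H2O2 raised 836 probe sets (1.86% of those tested) and lowered 814 (1.81%), called at an adjusted p under 0.05. Counted once per gene, at its probe set with the highest mean, 391 of 17097 genes rose (2.29%) and 455 fell (2.66%). Among them 134 rose and 130 fell at least 2-fold, and 20 rose and 14 fell at least 4-fold. The 4 treated arrays lay wholly beyond the 4 untreated ones in 758 of the 846 called genes, and in 9.74% of all genes. Replicate numbers were taken to pair treated with untreated WT arrays. With the number as a block in the 8 WT arrays, the paired WT fit, 388 genes rose (2.27%) and 509 fell (2.98%), among them 573 of the 846. With the block over all 28 arrays, which ties the numbers across genotypes, 707 rose (4.14%) and 886 fell (5.18%), among them all 846. The rises dropped to 535 probe sets without H2O2 replicate 4, and the falls to 534 without untreated replicate 3 and 461 without untreated replicate 4. All 846 genes changed in the same direction in both array sets, with a median size on the log2 scale of 0.75 for the set of replicates 1 and 2 and of 0.79 for the other set. This agreement follows partly from calling them on all 8 arrays.

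Outside the lists of p53 targets, G2-M genes, Nrf2 targets and sterol synthesis, the 12 highest rises included the stress factor genes Atf3 and Ppp1r15a. Among them were also H2-DMa, Gzmm and Isg20, from untreated means of 3.85, 4.4 and 5.39. Tcim, a regulator of transcription and inflammation, read 7.25, 5.96, 6.42 and 6.49 in untreated replicates 1 to 4 and 10.27, 9.81, 8.74 and 9.54 after H2O2. The groups did not overlap, and the mean rise was 3.06 ± 0.66 (SE) on the log2 scale, or 8.33-fold, at an adjusted p of 0.0081. H2-DMa, a chain of the protein that loads peptides on MHC class II, read 3.73, 3.78, 4.07 and 3.82 untreated and 6.51, 6.31, 7.41 and 7.31 treated. It therefore rose from near the background, by 3.03 ± 0.40 (adjusted p = 9.9e-05). Gzmm, the gene of granzyme M, a protease of killer lymphocytes, lay between 4.24 and 4.53 in untreated cells and between 6.96 and 7.44 in treated ones, a rise of 2.78 ± 0.36 (adjusted p = 5.7e-05). Isg20, an interferon-stimulated exonuclease, rose by 2.17 ± 0.35 (adjusted p = 0.00055). Of 8 measured markers of macrophages and other leukocytes 0 were called, with differences from -0.27 for Ptprc (CD45) to 0.68 for Cd68 and a median of 0.01, and 0 passed at an unadjusted p under 0.05 or in the adjusted t-test of the methods. The macrophage marker Cd68 read 4.74, 6.13, 6.49 and 6.38 untreated and 5.34, 6.52, 7.52 and 7.07 treated, higher in each treated array than in its untreated partner, and it was called in the paired WT fit (adjusted p = 0.038). Its part in the rise of immune genes was not tested.

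Atf3, a stress-inducible transcription factor of the ATF family, read 5.81, 5.62, 5.75 and 5.99 untreated and 8.38, 9.13, 8.77 and 8.30 treated. The rise of 2.85 ± 0.27 was 7.22-fold (adjusted p = 2.5e-06). Ddit4l, an inhibitor of the growth kinase mTORC1, rose by 2.28 ± 0.32 (adjusted p = 0.00016). Klhl24, an adaptor of a ubiquitin ligase, rose by 2.40 ± 0.60 (adjusted p = 0.023), a call that was lost without untreated replicate 3 or 4 or without H2O2 replicate 1 or 2. The transcripts 2610528A11Rik, 1700007K13Rik, Hoatz and 5031425E22Rik rose by 3.02, 2.50, 2.36 and 2.23. Ppp1r15a completes these 12 genes and is described below. A place outside the list of p53 targets does not show that a gene is independent of p53, which was not tested. The untreated levels of the 12 had a median of 5.31, close to the 5.41 of all genes, and 7 of the 12 lay below the median gene. They ran from 3.44 for Hoatz to 6.79 for Ppp1r15a.

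**Figure D1:**
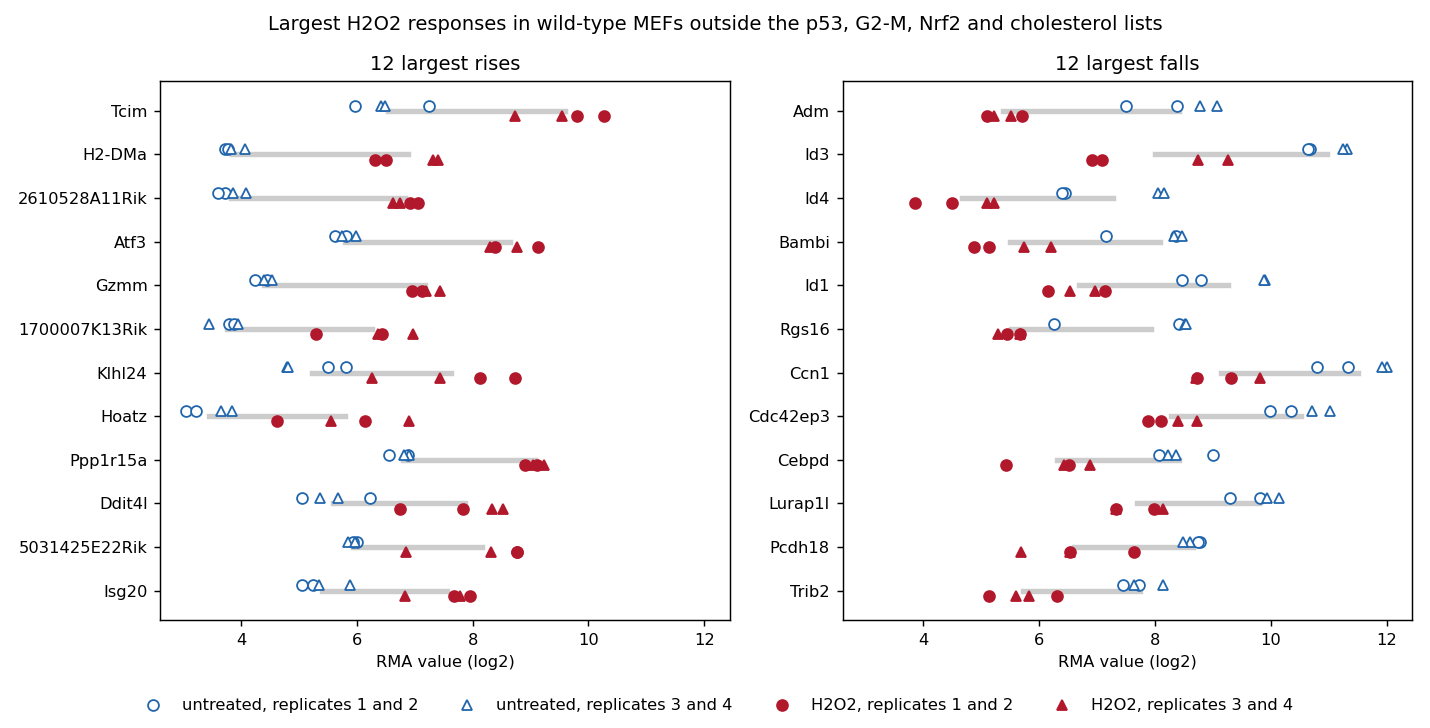
Log2 RMA values in each of the 8 WT arrays for the 12 genes with the largest rises (left) and the 12 with the largest falls (right) outside the p53, G2-M, Nrf2 and sterol lists. Open blue symbols are untreated and filled red symbols treated arrays, circles mark replicates 1 and 2 and triangles replicates 3 and 4, and grey bars join the group means. In each gene shown the treated arrays lie beyond the untreated ones, as the choice of genes required. The genes that fell started from higher levels, which a choice by large falls favours.

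The genes that fell most were well expressed in untreated cells, with a median of 8.54 and none of 12 below the median gene. This follows in part from the choice, because a large fall needs an untreated level well above the background. Adm, the gene of the vasodilator peptide adrenomedullin, read 7.49, 8.38, 9.07 and 8.77 in untreated and 5.10, 5.71, 5.51 and 5.21 in treated cells. It fell by 3.04 on the log2 scale (SE 0.36, adjusted p = 2.4e-05), or 8.25-fold. Rgs16, which shortens signalling of G proteins, fell from 8.41, 6.26, 8.51 and 8.54 to 5.67, 5.44, 5.28 and 5.67, so that untreated replicate 2 stood apart from the other untreated arrays. The change of Rgs16 was -2.42 ± 0.51 (adjusted p = 0.0063). Cebpd, a transcription factor of acute inflammation, changed by -2.11 ± 0.35 (adjusted p = 0.00066) and Cdc42ep3, an effector of the actin regulator Cdc42, by -2.24 ± 0.38 (adjusted p = 0.0009). Lurap1l, the protocadherin gene Pcdh18 and the pseudokinase gene Trib2 changed by -2.10, -2.05 and -2.02. The other 5 of the 12 belong to groups described below.

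The 34 lists of genes used here differed in how many of their members were called. A list is read against the share of all genes, 2.29% for rises and 2.66% for falls, and against the median change of all genes, 0.02. All genes include dim ones. Above the lowest 40% of levels 311 of 10263 genes rose and 434 fell, a higher share in each direction. The lists with the highest shares of rises were FoxO, mTOR and autophagy with 25.7%, the integrated stress response with 16.7% and the immediate early genes with 16%. Those with the highest shares of falls were the kinases and cofactors of transcription elongation with 25%, ERK feedback with 22.2% and YAP and SRF targets with 16%. The order in both directions depends on the block. Among rises, the circadian clock lay above the immediate early genes with the block over all arrays (21.1% against 16%). It did so in the paired WT fit too (15.8% against 12%). Among falls, with the block over all arrays, YAP and SRF targets (28%) and ERK feedback (27.8%) lay above elongation (25%). In the paired WT fit these shares of falls were 20.0%, 11.1% and 14.3%.

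**Figure D2:**
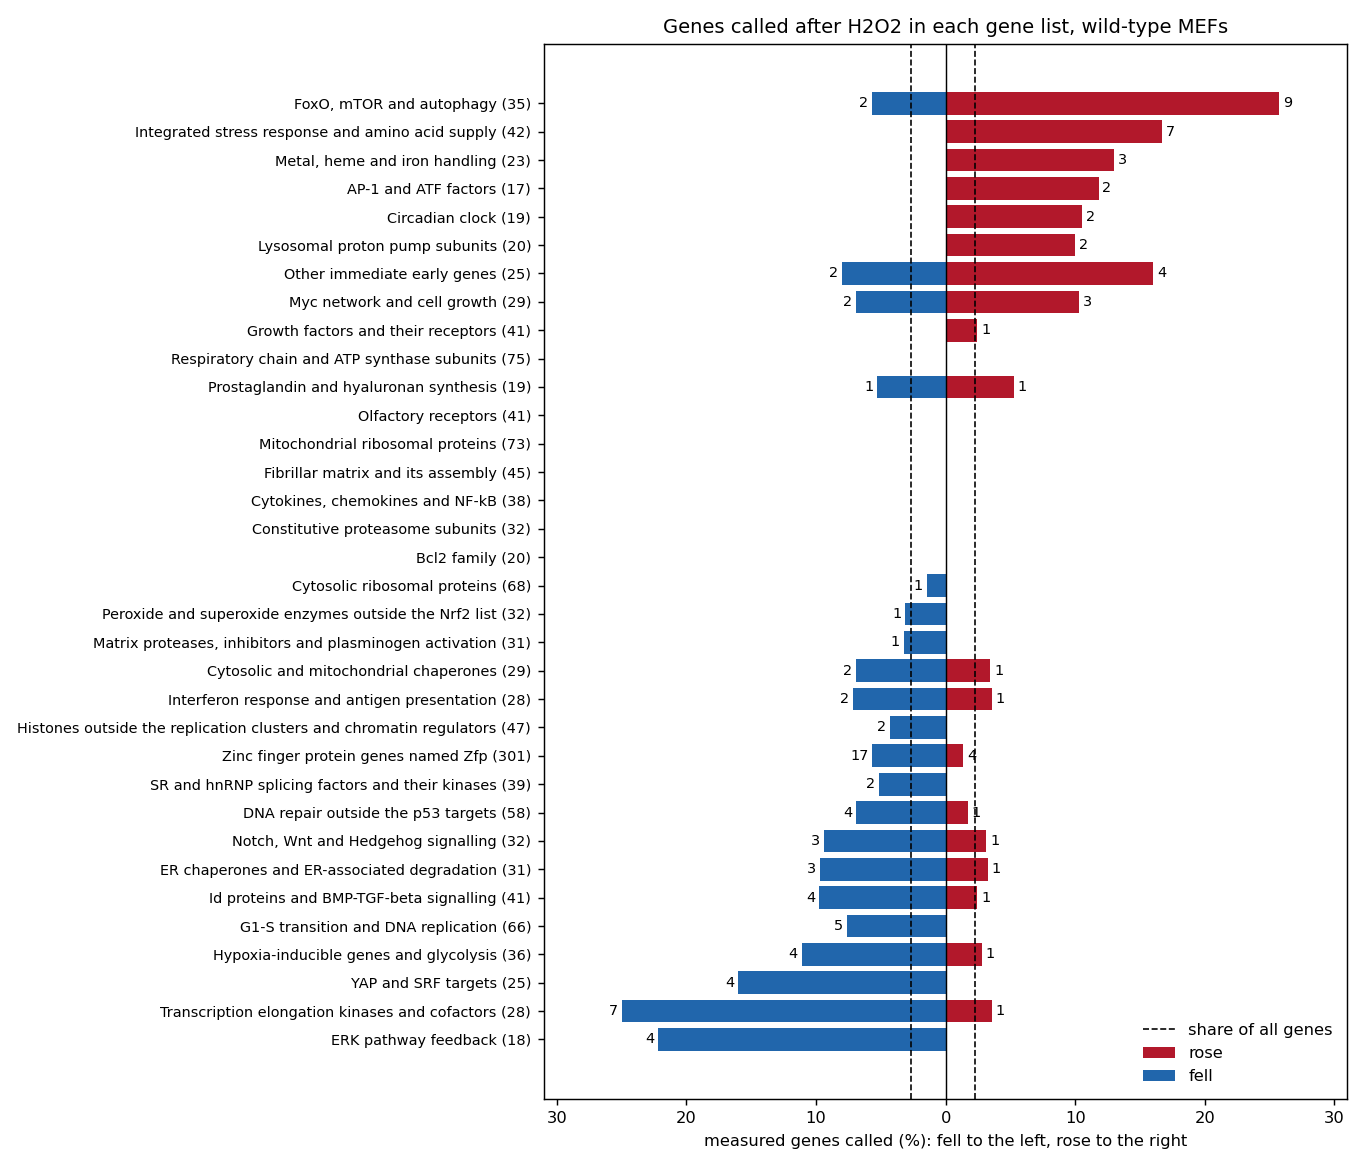
Share of the measured genes of each of the 34 lists that rose (red, to the right) or fell (blue, to the left) after H2O2 in WT MEFs, in percent, at an adjusted p under 0.05. The number measured stands in parentheses, numbers beside bars count the called genes, and dashed lines mark the shares over all genes, 2.29% and 2.66%. FoxO, mTOR and autophagy genes reach 25.7% among rises, and the elongation factors 25% among falls.

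Of 42 measured members of the integrated stress response 7 rose, with a median change of 0.18, and 8 rose in the paired WT fit, 5 of them among the 7. Ppp1r15a, which brings a phosphatase to eIF2α and so restores translation, read 6.89, 6.56, 6.90 and 6.81 untreated and 9.12, 8.90, 9.23 and 9.05 treated. The groups were far apart beside the spread of their replicates, and its rise of 2.29 ± 0.19 had the lowest adjusted p among the named genes, 4.8e-07. Ddit3, the gene of the pro-apoptotic factor CHOP, read 7.59, 8.61, 7.66 and 8.14 untreated and 9.17, 9.91, 9.79 and 9.91 treated. It rose by 1.69 ± 0.27 (adjusted p = 0.00042). Trib3, a target and inhibitor of the pathway, rose by 1.52 ± 0.27 (adjusted p = 0.0014, 0.059 in the paired WT fit). Slc3a2, the heavy chain of amino acid transporters, rose by 0.69 ± 0.12 (adjusted p = 0.00096). The other 3 that rose, named after their values were seen, were Vldlr with 1.48, Cebpg with 1.01 and the arginine transporter Slc7a1 with 0.50, the last not called in the paired WT fit. Atf4 itself read 10.94 untreated and 11.26 treated (change 0.32, adjusted p = 0.28), and Asns, which makes asparagine, read 10.92 and 11.09 (change 0.18, adjusted p = 0.85). Without the block, the 35 members not called differed by -0.25 for Mars1 to 0.89 for Cebpb. Among them the serine synthesis genes Psat1, Phgdh and Psph differed by 0.07, 0.08 and 0.27. Fgf21, a secreted hormone that ATF4 is known to induce, was the 1 gene called among 41 growth factors and receptors. It read 4.4, 4.30, 4.37 and 4.42 untreated and 5.10, 6.05, 5.97 and 5.86 treated, a rise of 1.37 ± 0.29 (adjusted p = 0.0064).

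Promoters of 4 of these genes are shown because each holds, within 250 bases upstream of its start, the letters of a site for ATF, AP-1 or C/EBP factors. They come from RefSeq on GRCm38.p6 and run 5′ to 3′ along the gene, with the motif in capitals. The capitals are TTGCATCA, which is TGATGNAA on the other strand, in Atf3 (chr1:191183334-191183583, minus strand) and Fgf21 (chr7:45615491-45615740, minus strand). They are TGACGTCA, the cyclic AMP response element, in Ppp1r15a (chr7:45526269-45526518, minus strand), and TGACTCA, an AP-1 site of the form TGANTCA, in Ddit3 (chr10:127290543-127290792, plus strand).
Atf3: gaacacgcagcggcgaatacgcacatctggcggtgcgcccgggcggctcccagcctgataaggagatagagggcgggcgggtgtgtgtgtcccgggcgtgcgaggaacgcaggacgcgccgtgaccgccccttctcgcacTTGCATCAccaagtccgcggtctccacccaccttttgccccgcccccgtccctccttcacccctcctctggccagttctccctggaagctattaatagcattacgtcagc
Ppp1r15a: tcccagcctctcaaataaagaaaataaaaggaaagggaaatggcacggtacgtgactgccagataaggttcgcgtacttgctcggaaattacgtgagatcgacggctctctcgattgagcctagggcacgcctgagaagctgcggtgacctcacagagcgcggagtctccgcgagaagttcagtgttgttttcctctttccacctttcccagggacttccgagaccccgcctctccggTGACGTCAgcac
Ddit3: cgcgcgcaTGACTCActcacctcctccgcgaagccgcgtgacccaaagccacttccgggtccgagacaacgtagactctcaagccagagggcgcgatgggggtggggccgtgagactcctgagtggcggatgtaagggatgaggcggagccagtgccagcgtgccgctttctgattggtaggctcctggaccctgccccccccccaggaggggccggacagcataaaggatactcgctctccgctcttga
Fgf21: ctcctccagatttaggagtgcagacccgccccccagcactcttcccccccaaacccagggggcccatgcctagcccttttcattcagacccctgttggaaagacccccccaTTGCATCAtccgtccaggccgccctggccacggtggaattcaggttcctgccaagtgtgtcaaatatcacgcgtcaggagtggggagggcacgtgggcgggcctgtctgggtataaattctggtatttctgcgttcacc
Over both strands, TGATGNAA was present upstream of 8 of 117 genes that rose at least 2-fold and had a promoter in the table (6.84%), of 1 of 106 that fell at least 2-fold (0.943%) and of 2.86% of all measured genes. It stands in 3.45% of all 32851 promoters. The 8 genes were Atf3, Fgf21, Vldlr, Ppp1r10, Zfp672, Ager, Gm46390 and 1600020E01Rik. TGANTCA was found in 7.69% of those that rose, 1.89% of those that fell, 6.84% of measured genes and 6.75% of all promoters. TGACGTCA was found in 5.13% and 5.66%, against 2.52% of measured genes and 1.55% of all promoters. The E-box CACGTG was found in 15.4% and 7.55%, against 8.75% and 6.02%. The CCAAT box on its reverse strand, ATTGG, was found in 48.7% and 39.6%, against 39.6% and 33.8%, and TATAAA in 11.1% and 9.43%, against 10.7% and 12.4%. These shares describe letters in a window and were not tested.

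Genes of FoxO signalling and autophagy made up the list with the highest share of rises, 9 of 35 measured, with a median change of 0.23. Foxo3, a transcription factor of growth arrest and stress resistance, read 7.10, 7.62, 7.39 and 7.38 untreated and 8.72, 8.92, 8.79 and 9.34 treated. Every treated array lay above every untreated one, and the rise was 1.57 ± 0.24 (adjusted p = 0.00031). Ccng2, a cyclin of quiescent cells that FoxO factors induce, rose by 1.17 ± 0.19 (adjusted p = 0.00053). Gabarapl1, which builds autophagosomes, read 9.12, 8.69, 8.70 and 8.78 untreated and 9.86, 9.86, 9.86 and 9.70 treated, a rise of 1.0 ± 0.10 (adjusted p = 5.2e-06). Rragd, a GTPase that ties lysosomes to mTORC1, rose by 0.89 ± 0.17 (adjusted p = 0.0023). Fbxo32, Arrdc3, Atg12, Ulk1 and Txnip, named after their values were seen, rose by 1.27, 1.5, 1.02, 0.87 and 0.71. On the side of growth, the insulin receptor substrate Irs1 changed by -1.08 ± 0.28 (adjusted p = 0.029) and Mtor by -0.55 ± 0.13 (adjusted p = 0.014, 0.084 in the paired WT fit), with treated replicate 3 of Mtor at 7.0, within the untreated range. Both calls were lost in several fits that left out 1 array, 4 of 8 for Irs1 and 3 of 8 for Mtor. Of 20 subunits of the lysosomal proton pump Atp6v1b2 rose by 0.56 and Atp6v1d by 0.33, and the median of the list was 0.18. These small rises were called in none and 3 of the 8 fits that left out 1 array, and that of Atp6v1d had an adjusted p of 0.07 in the paired WT fit.

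Some antagonists of Myc rose as well. Mnt and Mxi1, which compete with Myc for its partner Max, rose by 1.0 ± 0.19 (adjusted p = 0.003) and 0.87 ± 0.17 (adjusted p = 0.0028), and so did Mxd1, named after its value was seen, by 0.56. The related genes Mxd3, Mxd4 and Mga differed by -0.46, 0.04 and -0.18 (adjusted p = 0.85, 1 and 0.99). Myc's distant relatives Mlx and Mlxip, which together sense glucose, fell by 1.51 and 0.42 on the log2 scale. The network's genes of ribosome building are on the same list of 29, whose median change was -0.05. Of 19 clock genes Tef, an output factor of the clock, rose by 1.11 ± 0.16 (adjusted p = 0.00017) and Ciart, a repressor of the clock, by 0.88 ± 0.18 (adjusted p = 0.0042, 0.065 in the paired WT fit). The core repressors Per1 and Per2 changed by 0.46 (adjusted p = 0.069) and -0.03 (adjusted p = 0.99). The paired WT fit called Tef, Rora and Arntl.

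Genes of metal handling gave 3 rises of 23 measured. Mt1, a metallothionein that binds zinc and copper, read 7.96, 8.98, 8.53 and 8.71 untreated and 10.27, 10.82, 10.84 and 11.30 treated, a rise of 2.26 ± 0.38 (adjusted p = 0.00092). Slc30a1, which exports zinc from the cell, rose by 1.53 ± 0.38 (adjusted p = 0.023), although the call was lost in 5 of the 8 fits that left out 1 array. Both are known targets of the zinc sensor MTF-1. Mt1 and Hmox1 also stand on the list of Nrf2 targets. The third, Hmox1, the heme oxygenase, rose by 2.25 ± 0.34 (adjusted p = 0.00034). The enzymes that remove peroxide and superoxide gave a single call. Of 32 measured, outside the Nrf2 targets, the list's 1 call was the paraoxonase Pon2 with -0.64 ± 0.16 (adjusted p = 0.02), lost in 5 of the 8 fits that left out 1 array. Catalase (Cat) read 9.44 in untreated and 9.47 in treated cells, Gpx1 11.82 in both, Prdx2 11.32 and 11.34, and Sod2 9.12 and 9.23. The median change of these enzymes was 0.05.

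The immediate early genes, which growth factors and stress induce within minutes, went both ways at 4 h. Besides Atf3, the small Maf factor Mafk was the only other of 17 AP-1 and ATF factors called, with a rise of 0.67 ± 0.15 (adjusted p = 0.0083, 0.074 in the paired WT fit). Fos read 6.75 untreated and 5.96 treated (adjusted p = 0.62), Jun 8.92 and 9.19 (adjusted p = 0.71). Of 25 other immediate early genes 4 rose and 2 fell. Klf4, a Krüppel-like factor of growth arrest, read 7.69, 8.09, 7.47 and 7.98 untreated and 8.90, 10.17, 9.01 and 9.74 treated, a rise of 1.65 ± 0.25 (adjusted p = 0.00033). Its relative Klf11 rose by 1.36 ± 0.17 (adjusted p = 5.8e-05), whereas Klf2 read between 6.07 and 6.5 untreated and between 4.4 and 5.05 treated, a change of -1.52 ± 0.23 (adjusted p = 0.00028). Members of this 1 family thus moved in opposite directions. Rcan1, an inhibitor of calcineurin, and Ier5, both named after their values were seen, rose by 1.03 and 0.99, and Ier5 was not called in the paired WT fit.

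Of the 4 Id genes Id1, Id3 and Id4 fell. They encode proteins that hold back differentiation by trapping basic helix-loop-helix factors, and BMP signalling through Smad proteins is their known inducer. Id3 read 10.67, 10.64, 11.32 and 11.24 untreated and 7.09, 6.91, 9.26 and 8.74 treated. The treated arrays split by array set, and the mean change was -2.96 ± 0.52 (adjusted p = 0.0014), with -3.65 in replicates 1 and 2 and -2.28 in replicates 3 and 4. Id1 read 8.79, 8.46, 9.90 and 9.88 untreated and 6.15, 7.13, 6.97 and 6.53 treated, a change of -2.56 ± 0.44 (adjusted p = 0.00092). Id4 changed by -2.60 ± 0.72 (adjusted p = 0.045), with a call that held in only 1 of the 8 fits that left out 1 array. Id2 read 1.81 lower at an adjusted p of 0.053. Bambi, a decoy receptor that BMP signalling induces, read 8.36, 7.16, 8.33 and 8.47 untreated and 5.14, 4.88, 6.21 and 5.73 treated, a change of -2.59 ± 0.38 (adjusted p = 0.00023). The BMP receptor gene Acvr1 rose instead, by 0.62 ± 0.12 (adjusted p = 0.0039). These 5 were the calls among 41 measured members, and the median of the list was 0.00. In the paired WT fit Id2, Smad6, Smurf1 and Bmp4 were called as well.

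The list of feedback on the ERK kinases had a median change of -0.36. Of its 18 genes 4 fell, of which Spry1 alone was also called in the paired WT fit. Spry1, an inhibitor of receptor signalling to ERK, read 7.62, 7.33, 7.30 and 7.45 untreated and 6.25, 5.53, 5.72 and 5.81 treated. It fell by 1.6 (SE 0.23, adjusted p = 0.00015), equally in both array sets. Dusp6, the phosphatase of ERK, read 8.70, 7.57, 8.84 and 9.04 untreated and 6.63, 7.78, 5.72 and 5.71 treated, so that treated replicate 2 lay within the untreated range. Its change of -2.08 ± 0.48 (adjusted p = 0.012) comprised -0.93 in replicates 1 and 2 and -3.22 in replicates 3 and 4. Its adjusted p was 0.13 in the paired WT fit. Spry4 was similar, with 8.32, 6.24, 7.67 and 8.02 untreated and 5.19, 6.37, 4.48 and 4.52 treated (change -2.42 ± 0.58, adjusted p = 0.016, 0.11 in the paired WT fit). In pair 2 both Dusp6 and Spry4 read higher after H2O2. Etv5, a transcription factor downstream of ERK, changed by -0.74 ± 0.20 (adjusted p = 0.038, 0.061 in the paired WT fit). The call of Dusp6 was lost without untreated replicate 4 or H2O2 replicate 4, and those of Spry4 and Etv5 in 4 and 7 of the 8 fits that left out 1 array. Members that were not called went both ways, from -1.45 for Phlda1 (adjusted p = 0.12) to 1.06 for Dusp4 (adjusted p = 0.51). Dusp1, on the same list although its phosphatase acts mainly on the stress kinases, read 9.72 untreated and 9.83 treated (adjusted p = 0.99).

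Targets of YAP and SRF, which respond to the actin skeleton, had a median of -0.22, and 4 of 25 fell, 3 of them also in the paired WT fit. Ccn1, a secreted matrix protein and a classical YAP target, read 11.34, 10.79, 12 and 11.92 untreated and 8.73, 9.31, 9.81 and 8.71 treated, a change of -2.37 ± 0.35 (adjusted p = 0.00024). Its relative Ccn2 changed by -1.04 ± 0.27 (adjusted p = 0.03), Amotl2, a regulator of YAP, by -0.64 ± 0.17 (adjusted p = 0.032) and the focal adhesion gene Vcl by -0.41 ± 0.11 (adjusted p = 0.035, 0.069 in the paired WT fit). The last 3 calls were lost in 5, 7 and 7 of the 8 fits that left out 1 array. Srf and Ankrd1 joined in the paired WT fit. The actin genes Acta2, Actg2, Actb and Actg1 on this list differed by -0.06, -0.04, -0.09 and -0.11 and were not called. In the Notch, Wnt and Hedgehog list, Ptch1 (-0.89), Gli3 (-0.66) and the Wnt receptor gene Fzd7 (-0.54) fell and Notch3 rose by 0.80, out of 32 measured. Ptch1 and Gli3 belong to the Hedgehog pathway, whose other measured genes Gli1, Gli2, Hhip and Smo differed by 0.06, -0.39, 0.04 and -0.05 without a call. The call of Ptch1 was lost without untreated replicate 4, and those of Fzd7, Gli3 and Notch3 in 4, 6 and 6 of the 8 fits that left out 1 array.

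**Figure D3:**
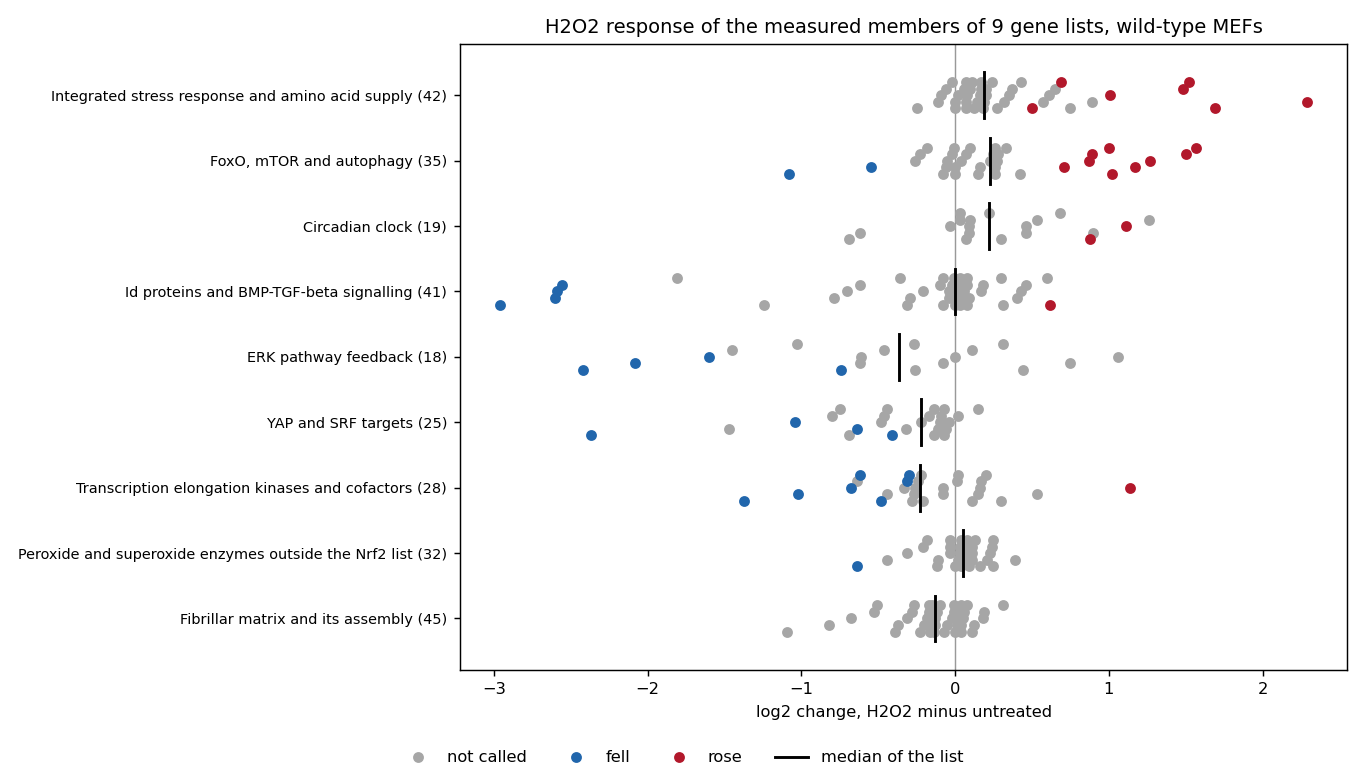
Log2 change after H2O2 (treated minus untreated) of the measured members of 9 lists in WT MEFs, 1 point a gene, with red for genes that rose, blue for genes that fell and grey for those not called at an adjusted p under 0.05. The black line is the median of the list, and the number measured is in parentheses. The median lies at 0.23 for FoxO, mTOR and autophagy and at -0.36 for ERK feedback, while in the Id and BMP list the 4 genes that fell lie at -2.56 or lower and the median is 0.00.

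Of 28 kinases, cofactors and inhibitors that control the elongation of transcription 7 fell, with a median of -0.23. In the paired WT fit 4 fell (14.3%), fewer in share than the YAP and SRF targets (20.0%) and the Id and BMP genes (17.1%). Hexim1, the inhibitor of the elongation kinase P-TEFb, read 7.48, 7.73, 7.39 and 7.41 untreated and 5.85, 6.63, 6.13 and 5.92 treated, a change of -1.37 ± 0.20 (adjusted p = 0.00021). The kinase subunit Cdk9 itself changed by -0.48 ± 0.09 (adjusted p = 0.0013, 0.072 in the paired WT fit), and Cdk13, a kinase of the polymerase tail, by -1.02 ± 0.20 (adjusted p = 0.0031). The others, named after their values were seen, were Cdk12 (-0.68), Brd3 (-0.62), Ctr9 (-0.31) and Cdk7 (-0.30), the last pair not called in the paired WT fit. The elongation factor gene Ell went the other way, from between 5.87 and 6.27 to between 6.95 and 7.52, a rise of 1.14 ± 0.16 (adjusted p = 0.0002). Among 39 splicing factors and their kinases, Clk2 (-0.90) and Hnrnpab (-0.45) fell. Of 301 genes named Zfp, mostly zinc finger factors, 17 fell (5.65%) and 4 rose (1.33%) and their median was -0.04. Zfp319 rose by 1.85 ± 0.26 (adjusted p = 0.00017), Zfp672 by 1.32 ± 0.18 (adjusted p = 0.00011) and Zfp622 by 0.41 (adjusted p = 0.077 in the paired WT fit). The fourth, Zfp740, was named after its value was seen and rose by 0.52. Zfp518b changed by -1.03 ± 0.14 (adjusted p = 0.00014). Zfp207 changed by -0.66 ± 0.10 (adjusted p = 0.0002) at its strongest probe set, but by 0.12 in the mean of its 6 probe sets.

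Of 66 genes of the G1-S transition and DNA replication 5 fell, or 8 in the paired WT fit, and the median was -0.13. Cdc7, the kinase that fires replication origins, read 6.36, 6.51, 6.73 and 6.83 untreated and 4.82, 3.91, 4.90 and 5.31 treated, a change of -1.87 ± 0.33 (adjusted p = 0.0015). Skp2, which marks the CDK inhibitor p27 for destruction, changed by -1.17 ± 0.19 (adjusted p = 0.00047), the E2F repressor E2f8 by -1.27 ± 0.19 (adjusted p = 0.00034) and Slbp, which processes histone mRNA, by -0.93 ± 0.17 (adjusted p = 0.0023). E2f5, named after its value was seen, was the fifth with -0.86. In DNA repair 4 of 58 fell and 1 rose. The exonuclease gene Exo1 changed by -1.65 ± 0.36 (adjusted p = 0.0085), the mismatch repair gene Pms2 by -0.77, the ubiquitin ligase gene Rnf8 by -0.63 and, named after its value was seen, the DNA ligase gene Lig3 by -0.46. Ercc5, an endonuclease of nucleotide excision repair, rose by 1.07 ± 0.27 (adjusted p = 0.023), a call lost in 5 of the 8 fits that left out 1 array. Among 47 histone variants and chromatin regulators, H2ax, the histone variant marked at DNA breaks, read 8.95, 8.97, 8.96 and 8.95 untreated and 7.86, 7.84, 8.12 and 7.27 treated (change -1.19 ± 0.27, adjusted p = 0.01). The call was lost without H2O2 replicate 4. The methyltransferase gene Ehmt1 changed by -0.73 (adjusted p = 0.0091).

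Protein folding genes gave calls in both directions. Of 31 chaperones and degradation genes of the endoplasmic reticulum (ER), Xbp1, the factor of the unfolded protein response, changed by -0.65 ± 0.13 (adjusted p = 0.0046), the ubiquitin ligase gene Syvn1 by -0.92 ± 0.17 (adjusted p = 0.0018) and Ssr1 by -0.31, while Derl1, a channel for misfolded proteins, rose by 0.48. The main ER chaperone gene Hspa5 read 11.85 untreated and 11.84 treated (adjusted p = 1). Among 29 cytosolic and mitochondrial chaperones, the heat-inducible Hspa1b read 9.38, 9.23, 10.26 and 10.25 untreated and 7.02, 8.83, 7.94 and 7.91 treated, a change of -1.85 ± 0.43 (adjusted p = 0.014), and Hspa2 fell by 0.92. Hspb8, a small heat shock protein of autophagy, rose by 0.77. In the ER list 3.23% rose and 9.68% fell, and in the other list 3.45% and 6.9%, against 2.29% and 2.66% of all genes. With the block over all arrays these shares were 6.45% and 9.68%, and 10.3% and 24.1%, against 4.14% and 5.18%. Of the ER genes, the paired WT fit called Xbp1 and Syvn1, which fell, and Dnajb9 and Ero1a, which rose. In the paired WT fit the only cytosolic or mitochondrial chaperone called was Hspb8, and the adjusted p was 0.054 for Hspa1b, 0.094 for Hspa2, 0.12 for Ssr1 and 0.054 for Derl1. The calls of Ssr1, Derl1 and Hspa2 were lost in 7 of the 8 fits that left out 1 array, that of Hspb8 in 4 and that of Hspa1b in 3.

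Hypoxia genes and glycolysis had a median of -0.06 over 36 genes. Besides Adm, the falls were Ankrd37 with -1.0 ± 0.17 (adjusted p = 0.0011), Pfkfb3, which steers glycolysis, with -0.78 ± 0.20 (adjusted p = 0.024, lost in 3 of the 8 fits that left out 1 array) and, named after its value was seen, the glucose transporter gene Slc2a1 with -0.80 (adjusted p = 0.039). Ndrg1, which hypoxia and stress also induce, rose from 7.51, 7.26, 6.30 and 7.06 to 8.30, 9.30, 8.72 and 8.93, by 1.78 ± 0.27 (adjusted p = 0.00031). Adm and Ndrg1, both known hypoxia targets, thus lay at opposite ends of this list.

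The lists of inflammatory genes differed in their calls. No gene was called among 38 cytokines, chemokines and NF-kB genes by limma, with 8 at an unadjusted p under 0.05 and 0 in the methods' t-test after adjustment. Cxcl5, a chemokine that attracts neutrophils, read 4.79, 8.03, 6.18 and 8.12 untreated and 3.09, 4.11, 3.13 and 5.06 treated, a difference of -2.93 ± 0.90 at an adjusted p of 0.078. Each treated array lay below the untreated array of its own number. The paired WT fit called Cxcl5, Cxcl1, Lif and Nfkbia. Among 28 interferon and antigen presentation genes the immunoproteasome gene Psmb9 rose by 1.54 ± 0.29 (adjusted p = 0.0027), whereas Irf3 and Stat3, factors that carry interferon and cytokine signals, changed by -0.91 ± 0.19 (adjusted p = 0.0052) and -0.59 ± 0.15 (adjusted p = 0.029). Of 19 genes of prostaglandin and hyaluronan synthesis, the prostaglandin receptor gene Ptger4 changed by -1.41 ± 0.29 (adjusted p = 0.0049, 0.1 in the paired WT fit) and the hyaluronidase gene Hyal1 rose by 0.67. Each direction made up 5.26% of these 19 genes. Of the 28 interferon and antigen presentation genes 3.57% rose and 7.14% fell, against 2.29% and 2.66% of all genes. In the paired WT fit 10.7% of them rose and 14.3% fell, against 2.27% and 2.98% of all genes. That fit called Tapbp, Irf9, Socs2 and Socs3 there as well. The calls of Stat3 and Hyal1 were each lost in 5 of the 8 fits that left out 1 array. Ptgs2, the inducible cyclooxygenase, read 11.63, 9.86, 11.08 and 10.75 untreated and 10.75, 10.45, 7.96 and 8.76 treated (adjusted p = 0.5).

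Several large groups of genes held no call. The list of cytokines above and 6 others had no call, namely the fibrillar matrix (45 genes, median -0.13), the Bcl2 family (20, 0.06), mitochondrial ribosomal proteins (73, -0.02), respiratory chain subunits (75, 0.07), constitutive proteasome subunits (32, 0.00) and olfactory receptors (41, 0.02). Over the 324 genes of these 7 lists, limma gave 29 at an unadjusted p under 0.05, and the methods' t-test none after adjustment. In the paired WT fit 4 mitochondrial ribosomal proteins, the matrix gene Hspg2 and the death activator Bcl2l11 were called as well. Of 68 genes matched as cytosolic ribosomal proteins the 1 call was Rpl7l1 (-0.78), a ribosome assembly factor. Among 31 matrix proteases and inhibitors it was the protease gene Adamts1, with -1.75 ± 0.39 (adjusted p = 0.011), a call lost without untreated replicate 2. In the paired WT fit 12.9% of these 31 genes fell, against 2.98% of all genes, with Adamts4, Adamts5 and Plau besides Adamts1. Of 14 markers of fibroblast identity Twist1, named after its value was seen, changed by -0.75 (adjusted p = 0.036).

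Genes that rose had a lower median length than genes that fell. The median length from start to end in RefSeq was 16.1 kb over 391 genes that rose, 22.8 kb over 454 that fell and 20.1 kb over all 17053 with a length. Genes over 100 kb made up 5.37% of the rises, 11.7% of the falls and 12.5% of all genes. Above the lowest 40% of levels the medians were 16.4 kb, 24.0 kb and 22.6 kb. In the 250 bases upstream of the start, GC content had a median of 60.5% in genes that rose, 62.0% in those that fell and 57.6% in all measured genes. These features were described without a test.

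Probe sets of 1 gene could disagree. Of the 433 called genes with several probe sets, 141 had a second one called in the same direction and 5 had one called in the opposite direction. These were Asxl1, Ccdc127, Mbd1, Prmt6 and Zxdc, named after their values were seen. In Prmt6, an arginine methyltransferase gene, one probe set changed from 7.13 to 5.99 (-1.14, adjusted p = 0.00031) and another from 4.78 to 5.72 (0.93, adjusted p = 0.0029). In Zxdc the strongest probe set changed by 0.59 and another by -1.58 (adjusted p = 0.00013), in Mbd1 by 0.50 and -1.31, in Asxl1 by -1.13 and 0.39, and in Ccdc127 by -0.63 and 1.77. The parts of the transcripts that these probe sets read are not given in the sources used here.

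The array sets were compared by an interaction term, which limma called at no probe set (0.0%), with 2438 at an unadjusted p under 0.05. Without H2O2 replicate 4 it was called at 727. Dusp6, with -0.93 and -3.22, and Id3, with -3.65 and -2.28, show the spread between the sets. In p66-/- cells H2O2 called 8 probe sets that rose and 0 that fell, and the response differed from that of WT cells at 1 probe set, without a gene name here (0.00222%), and at 1375 at an unadjusted p under 0.05. That count was 18 without p66-/- H2O2 replicate 2 and 2 without WT H2O2 replicate 2. Of the 100 genes named by rule in WT cells 97 had the same sign in p66-/- cells and 99 a smaller change, the exception being Ccng2 with 1.17 in WT and 1.23 in p66-/- cells. Because these genes were chosen by their change in WT cells, a smaller change elsewhere follows in part from the choice. Ccng2, Gabarapl1 and Ppp1r15a were called in p66-/- cells too, with rises of 1.23, 0.65 and 1.20. Fgf21 rose by 1.37 in WT cells, against a difference of 1.34 in p66-/- cells, and Atf3 by 2.85 against 1.13. By the interaction term in limma, 0 of the 100 responses differed at an adjusted p under 0.05 and 46 at an unadjusted one.

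**Figure D4:**
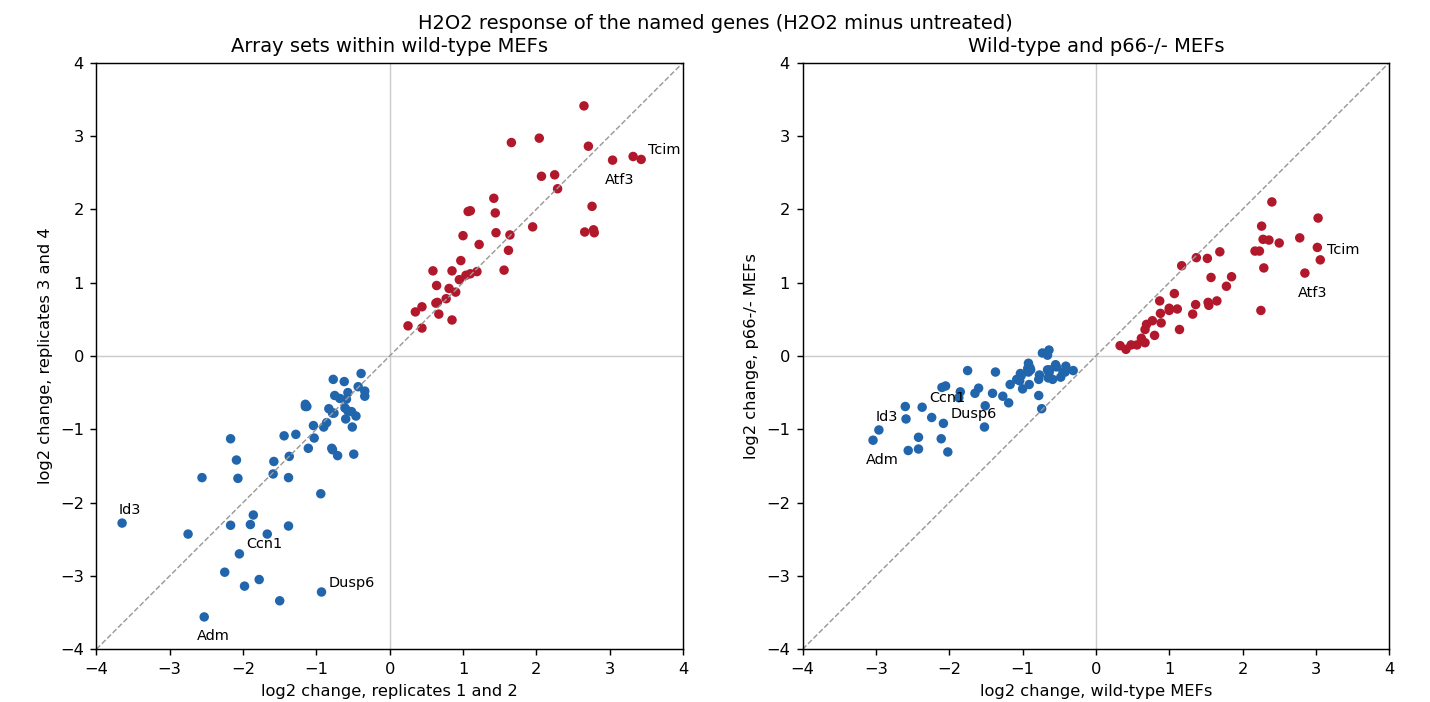
Log2 change after H2O2 (treated minus untreated) of the 100 named genes, in replicates 1 and 2 against replicates 3 and 4 of WT MEFs (left) and in WT against p66-/- MEFs (right), with red for genes that rose and blue for genes that fell in WT cells. The dashed line marks equal change. All points on the left lie in the quadrants of equal sign, and on the right 99 of 100 lie nearer to 0 in p66-/- than in WT cells, which the choice of genes by their WT change favours.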

How the data were processed

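RNA of primary MEFs was hybridized to Affymetrix MG-430 PM arrays. The deposited values are log2 intensities that the authors made with RMA in Partek 6.5, according to the submitters' processing notes. No read or molecule counts underlie them, so that the number of arrays limits the precision. The 45037 probe sets other than 104 controls were fitted with limma 3.58.1 in R 4.3.3, with a mean for each of 8 groups over 28 arrays and without a block. P-values were two-sided and adjusted by Benjamini-Hochberg over all probe sets, and a call is an adjusted p under 0.05. The SE is that of limma.

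A gene is represented by its probe set with the highest mean over the WT arrays among 28898 probe sets with a single symbol. A further 551 have several symbols and 15588 none, and these remain unnamed. Named were the 12 largest rises and 12 largest falls without overlap outside the p53, G2-M, Nrf2 and sterol lists, from every list up to 4 called members, taken by adjusted p, and up to 3 that went against its majority, 100 genes in all. Members of lists that were not called are given as background. The lists and members were chosen with earlier results of these data known.

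Treated arrays correlated best with the untreated array of their own number in the deviations from the group means. In replicates 1 to 4 r was 0.738, 0.658, 0.560 and 0.599, against at most 0.223, 0.295, 0.553 and 0.364 with another number. The numbers were therefore taken to pair the WT arrays, although in replicate 3 the best other number came close. The alternatives were the number as a block in the WT arrays (the paired WT fit) or over all 28 arrays, the WT arrays alone, each array set, a further quantile normalization, a filter on dim probe sets, the methods' t-test and leaving out each array. The p53-/- arrays were not compared, because their treatment labels run against a table of the study. They enter the estimate of the spread as whole groups, which an exchange of the labels between these groups would not change.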

Additional observations from a re-analysis of the deposited data

Results flagged for a closer look

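Among the 200 groups of 4 WT arrays that the 100 named genes give, 8 had 1 array far from the other 3, where chance alone, at about 1 group in 20, would set apart about 10. Untreated replicate 2 was low for Rgs16, with 6.26 against 8.41 to 8.54, for Bambi, with 7.16 against 8.33 to 8.47, and for Pon2, with 7.68 against 8.13 to 8.20. Untreated replicate 4 was high for Ankrd37, with 5.22 against 4.81 to 4.82, and for Psmb9, with 5.44 against 5.07 to 5.12. H2O2 replicate 1 was low for Ddit3, with 9.17 against 9.79 to 9.91, and for Rnf8, with 6.61 against 7.20 to 7.28. H2O2 replicate 4 was low for Gabarapl1, with 9.70 against 9.86 in the others.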

How the results depend on the processing

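Against 836 probe sets that rose and 814 that fell, the 8 WT arrays alone gave 428 and 361, replicates 3 and 4 alone 161 and 124, the methods' t-test after adjustment 142 and 83, and the 2-fold limit 254 and 221. Replicates 1 and 2 alone gave 0 and 0, in a fit of 4 arrays. With the replicate number as a block over all arrays, the counts were 1498 and 1633, and within the WT arrays 806 and 920. Of the 100 named genes, the block over all arrays kept the calls of 100 and that within the WT arrays of 84, the WT arrays alone without a block of 64, replicates 3 and 4 alone of 34 and replicates 1 and 2 alone of 0. Leaving out 1 array gave 535 to 863 rises and 461 to 786 falls. Of the 100 named genes 71 kept their call in all 8 such fits, 29 lost it in at least 1, and 0 changed sign. Zfp207 reversed to 0.12 in the mean of its probe sets. The response differed between p66-/- and WT cells at 0 probe sets without the lowest 40% of values, at 1375 at an unadjusted p under 0.05 and at 1 to 18 with 1 array left out. Between the array sets it differed at 2438 at an unadjusted p under 0.05 and at 0 to 727 with 1 array left out. The cause of these shifts was not tested. The median of 0 to 3 of the 34 lists turned sign under each alternative. Changes near the background are understated on this scale.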
